A study of Rattus norvegicus with 9 samples.

Results

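The 20 genes described here carry the symbols of classical transcription factor families and were measured in RN46A cells, a rat line. They were chosen by name. Of 32662 Ensembl genes in the count table, 1384 carry a name in the authors' DESeq2 or Salmon and sleuth tables for VPA or their lithium table. Of those, 24 have a symbol that begins with Zfp, Znf, Sox, Fox, Klf, Hox, Nkx, Pax or another of 19 such stems. A gene entered these 2 VPA tables on its adjusted p-value or q-value in these same libraries, so the VPA against control values below describe the members and test nothing. Left out were Sox10, by name, and Nkx2-3, Hoxd4 and Klf8, by a limit of 20 or fewer counts over the 6 control and lithium libraries. Nkx2-3, Hoxd4 and Klf8 held 2, 4 and 11 counts there, and 22, 36 and 24 in the 3 VPA libraries. Sox10 held 11 counts over the control and lithium libraries and 90 in the VPA libraries. The members nearest to that limit were Sox6 with 33 counts, Zfp819 with 104 and Zfp36l2 with 112. The members fall into 6 of the 19 families: 12 are named for zinc fingers (11 Zfp genes and Znf750), 3 are Sox genes, 3 are Fox genes, and Hoxb5 and Six5 are the only members of theirs. None carries a Klf, Nkx, Pax, Tbx, Lhx, Irx, Gata, Pou, Ets, Etv, Egr, Runx or Tead symbol. A family without a member had no gene above the count limit that was named in the tables used for names, which says nothing of its other genes. The authors' Cufflinks table for VPA was not used for names, and it lists Klf4, Klf10, Tbx21 and Lhx6.

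RN46A was derived from embryonic rat raphe, where serotonergic neurons arise, and is labelled as a serotonergic line. The cells were kept at 33 °C, moved to 39 °C to differentiate for 72 h, and then exposed for 72 h. The 3 groups are Control, Lithium at 0.5 mM and VPA at 0.5 mM, with 3 libraries each, and all libraries come from this 1 line. VPA is valproic acid, a mood stabiliser and anticonvulsant that inhibits histone deacetylases; lithium is a mood stabiliser that inhibits glycogen synthase kinase. The labels do not state whether replicates are separate cultures, so p-values measure a spread between libraries that may be technical.

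The families share a DNA-binding fold within themselves. Sox proteins bind through a high-mobility-group box and bend DNA, and they are known for progenitor upkeep (Sox2) and for neuronal and glial differentiation (Sox11, Sox6). Forkhead (Fox) proteins bind through a winged helix, and Hox proteins and Six5 through a homeodomain. The Zfp and Znf symbols mark zinc-finger proteins of several kinds. Most carry the DNA-binding C2H2 type, but Zfp36l1 and Zfp36l2 are RNA-binding proteins that promote decay of mRNAs with AU-rich elements. The family label therefore does not hold for these 2 genes as transcription factors, and they are kept here by the rule on names.

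Promoter sequence is shown for 2 pairs of relatives that lay on opposite sides of the control level in the VPA libraries, Sox2 (lower) with Sox11 (higher) and Foxc1 (lower) with Foxo6 (higher). Each run is the 250 bases before the RefSeq start on GRCr8, 5′ to 3′ on the gene's strand, and capitals mark GC boxes, the letters GGGCGG on either strand, which Sp-type zinc-finger proteins can bind. The windows lie at chr2:119464881-119465130 (plus strand) for Sox2, chr6:49738795-49739044 (minus) for Sox11, chr17:32844101-32844350 (minus) for Foxc1 and chr5:139161630-139161879 (minus) for Foxo6.
Sox2: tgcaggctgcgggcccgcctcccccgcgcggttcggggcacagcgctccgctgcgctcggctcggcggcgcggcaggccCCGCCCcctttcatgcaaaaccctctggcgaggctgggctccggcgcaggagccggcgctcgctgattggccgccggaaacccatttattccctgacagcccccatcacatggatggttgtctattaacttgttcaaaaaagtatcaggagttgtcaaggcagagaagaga
Sox11: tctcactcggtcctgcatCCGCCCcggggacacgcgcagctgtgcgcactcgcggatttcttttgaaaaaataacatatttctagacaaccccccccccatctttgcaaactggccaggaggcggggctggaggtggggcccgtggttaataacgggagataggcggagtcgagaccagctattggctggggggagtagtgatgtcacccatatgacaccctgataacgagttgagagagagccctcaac
Foxc1: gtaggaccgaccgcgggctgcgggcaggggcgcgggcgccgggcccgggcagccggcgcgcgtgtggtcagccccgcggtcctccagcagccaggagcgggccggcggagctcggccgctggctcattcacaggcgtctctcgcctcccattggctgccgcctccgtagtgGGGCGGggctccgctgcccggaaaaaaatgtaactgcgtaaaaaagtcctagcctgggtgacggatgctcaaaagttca
Foxo6: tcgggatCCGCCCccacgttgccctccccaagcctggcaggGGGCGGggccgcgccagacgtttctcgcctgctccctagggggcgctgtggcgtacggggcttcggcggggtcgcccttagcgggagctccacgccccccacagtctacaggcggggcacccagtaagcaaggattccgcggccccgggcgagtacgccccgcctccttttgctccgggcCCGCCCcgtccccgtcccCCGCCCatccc
Both members of each pair hold the box: Sox2, Sox11 and Foxc1 hold 1 each and Foxo6 holds 4. Over windows of 300 bases (250 before to 50 after the start), 14 of the 20 members have a RefSeq window. The GC box was found in 7 of them, 5 of the 10 windows of members with a VPA log2 below 0 and 2 of the 4 above 0, against 33.1% of all 33469 windows in the table. Their GC content ranged from 42.0% for Sox6 to 75.7% for Foxo6, with a median of 60.5% against 51.7% over all windows. The other 3 motifs were searched on both strands, none of which holds the GC box or lies within it. TGACG, the half-site of cAMP-responsive factors, was found in 2 of 14 windows against 21.2% of all. CAGCTG, an E-box of basic helix-loop-helix factors, was found in 3 of 14 against 15.1%, and the ETS core CCGGAAG in 0 of 14 against 8.75%. These are matches of letters in a window and were not tested as binding sites. Hoxb5, Zfp219, Zfp608, Zfp710, Zfp872 and Znf750 are named without a window.

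The libraries hold 9580591 to 13030300 counts each, so 1 count is worth 0.0767 to 0.104 CPM, counts scaled to library size. Levels below are CPM on TMM-scaled library sizes, with the mean ± SD of 3 libraries, and compare 1 gene between groups only, because they are not divided by gene length. Marker genes carry a name only where the authors' tables list them, so those named were largely selected on the VPA contrast and their calls describe, beside 5.71% of all genes called higher and 2.99% lower. Of 15 neuron markers 8 have a name, and these 8 summed to 41.5 to 52.6 CPM in Control, 41.5 to 53.1 in Lithium and 154 to 169 in VPA. The 7 of them that were tested, all but Elavl3, were called higher in VPA than Control. The 5 named of 8 fibroblast markers were all called lower, at 1810 to 3640, 1210 to 2660 and 462 to 734 CPM. Most of that sum is S100a4, which other cell types express too (2220 ± 1060 CPM in Control and 488 ± 152 in VPA). Of 5 leucocyte markers Cd68 and Lcp1 have a name, both called higher, with sums of 8.71 to 14.3, 12.1 to 21.3 and 25.6 to 45.0 CPM. The 4 named of 8 neural crest or Schwann markers summed to 11.1 to 16.9, 14.4 to 15.9 and 55.9 to 65.1 CPM, 3 called higher and 1 lower. Of 9 serotonergic markers only Maob carries a name, at 0.868 to 1.45 CPM in Control and 5.46 to 8.43 in VPA, so the labelled cell type could not be checked on its defining genes. The part of these marker differences in the members' values was not tested, and fewer cells of a type cannot be told apart from less RNA per cell in such bulk libraries.

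In VPA against Control, the members were mostly lower. The rule weighs on that split, since the 4 genes it left out held more counts in VPA than in Control and Lithium together. All 20 were measured and passed the filter on low counts, and 19 pass it also without the VPA libraries (the exception is Sox6). Of the 20, 15 had a log2 fold change below 0 and 5 above 0, with a median of -0.8 beside -0.01 over all 12719 genes tested. edgeR called 11 lower, where 2.99% of all genes tested were called lower, and 4 higher (Foxo6, Sox6, Sox11 and Zfp872), where 5.71% were. Zfp347, Zfp608, Zfp710, Zfp36l2 and Zfp819 were not called. Because this contrast supplied the names, these counts are a description only. The log2 values of members called lower ran from -0.70 to -1.89 and those of members called higher from 1.22 to 2.07. Each of the same-numbered VPA and Control pairs gave the same sorting, 15 members lower and 5 higher in all 3. The share of all genes with the same sign in all 3 pairs was not computed, and some of the differences were small. The log2 ratio was 0.04 for Zfp819 in pair 2 and -0.1 for Zfp36l2 in pair 1. The VPA and Control libraries did not overlap in 13 members that were lower, where 11.4% of all genes did so, and in 4 that were higher, where 14.1% did. Set against both other groups together, the VPA libraries lay below all 6 in 12 members (8.59% of all genes) and above all 6 in 4 (11.7%), and overlapped them in Foxq1, Zfp347, Zfp36l2 and Zfp819.

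**Figure D1:**
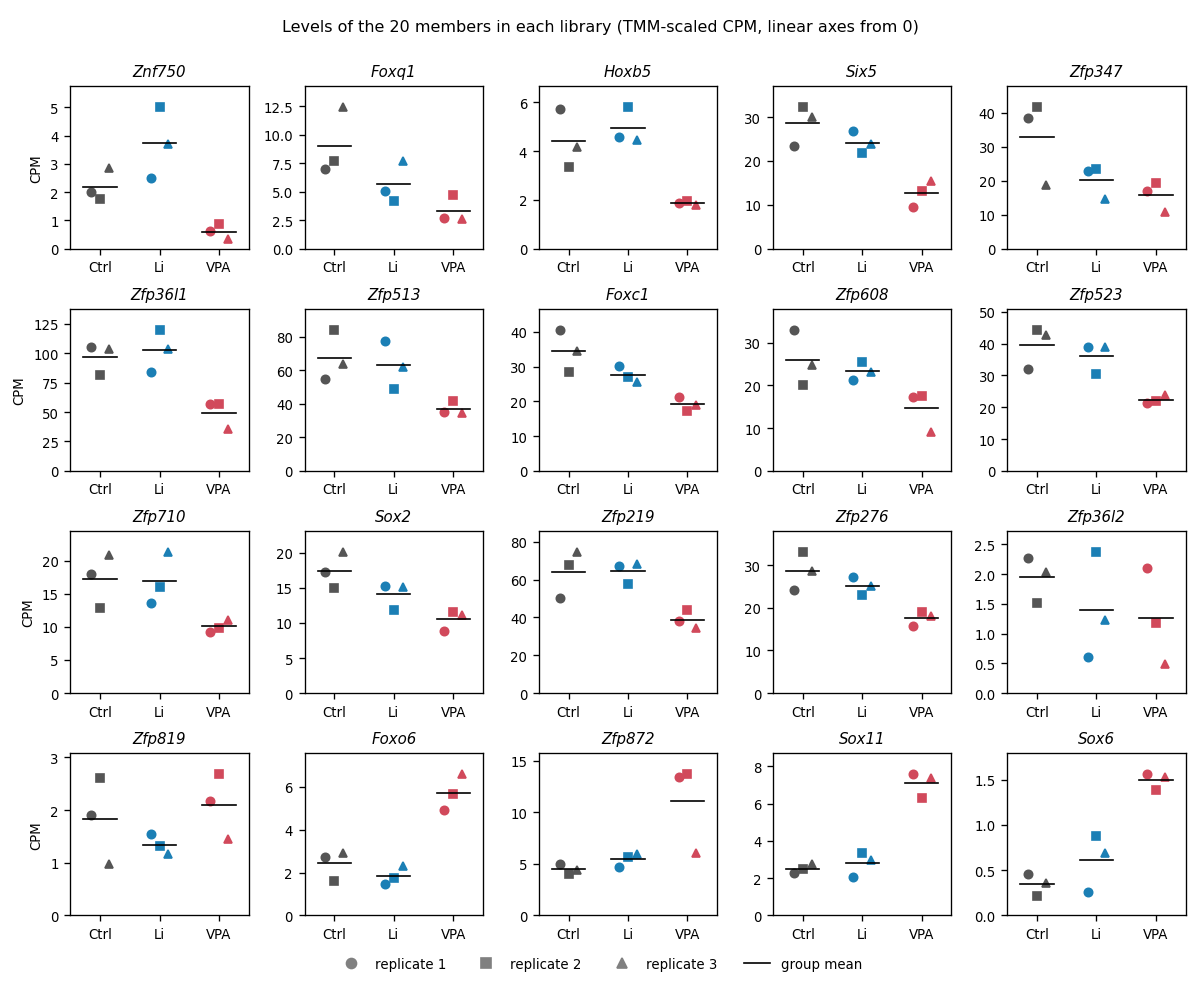
TMM-scaled CPM of the 20 members (linear axes from 0) in each of the 9 libraries; symbols mark the replicate number and bars the group mean. Sox11, Sox6, Foxo6 and Zfp872 have all 3 VPA points above the 6 others, while 12 members have them below.

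The members' direction went with their level. All 11 members that averaged at least 10 CPM across libraries were lower in VPA than in Control (8 called), and of the 9 below 10 CPM, 4 were lower (3 called) and 5 higher (4 called). Among those 4 is Zfp36l2, at 1.53 CPM, whose level is uncertain. The authors' deposited Salmon and sleuth table gives its transcript a mean of 7.86 on the natural log scale, above the 6.93 of Zfp36l1. Over all genes tested, 54.6% of the 9162 at 10 CPM or more had a log2 below 0, with 281 called lower and 259 higher. Below 10 CPM it was 41.9% of 3557 genes, with 99 called lower and 467 higher. The part of the level in the members' direction was not tested. The count limit also bears on it, as it left out only genes with few counts in Control and Lithium, and these were higher in VPA.

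**Figure D2:**
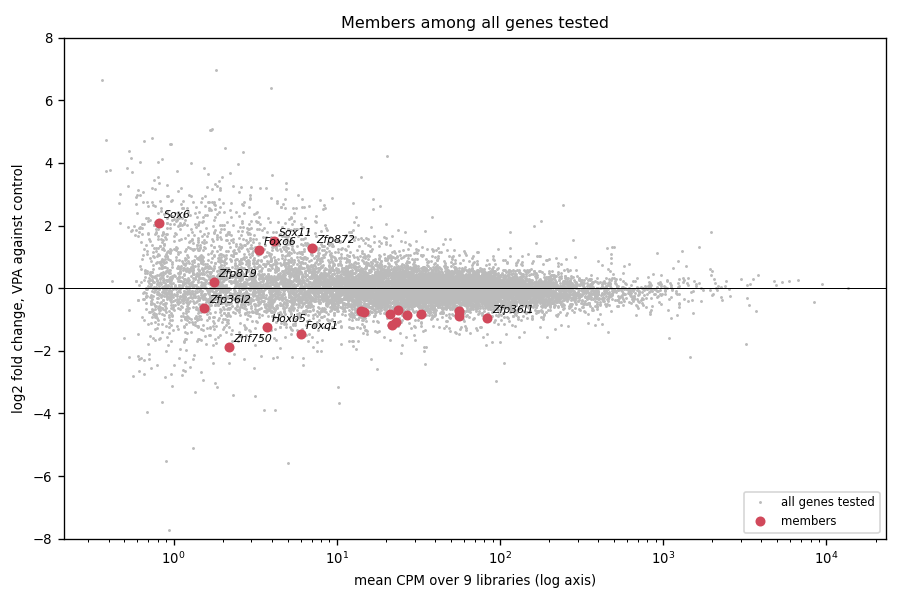
Log2 fold change of VPA against Control (edgeR) on the mean CPM over 9 libraries (log axis) for all 12719 genes tested, with the members in red. The members at 10 CPM or more all lie below 0, and the 5 above 0 are Sox6, Zfp819, Foxo6, Sox11 and Zfp872.

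The 3 Sox genes differed in direction. Sox2 (ENSRNOG00000012199), the neural progenitor factor, stood at 17.3, 15 and 20.1 CPM in Control (17.5 ± 2.56), 15.3, 11.8 and 15.1 in Lithium (14.1 ± 2.0) and 8.82, 11.6 and 11.2 in VPA (10.5 ± 1.49). All VPA libraries lay below all others, the highest of them just under the lowest Lithium library, and the VPA log2 was -0.73 ± 0.21 (SE). Sox11 (ENSRNOG00000030034), a SoxC factor of neuronal differentiation, stood at 2.27, 2.5 and 2.76 CPM in Control (2.51 ± 0.244) and 2.07, 3.33 and 3.0 in Lithium (2.8 ± 0.657). In VPA it stood at 7.57, 6.32 and 7.39 (7.09 ± 0.675), a log2 of 1.5 ± 0.26, and the lowest VPA library was above the highest of the other 6. Sox6 (ENSRNOG00000020514), a SoxD factor, had few counts, 5, 2 and 4 in Control, 3, 10 and 9 in Lithium and 20, 13 and 19 in VPA. That is 0.342 ± 0.119, 0.61 ± 0.318 and 1.49 ± 0.0887 CPM, and a log2 of 2.07 ± 0.48 for VPA. Sox6 passed the filter on low counts only with the VPA libraries, in which it was higher. Sox10, left out by name, held 0, 1 and 2 counts in Control, 1, 1 and 6 in Lithium and 21, 22 and 47 in VPA. It was also called higher in VPA than Control (log2 4.61 ± 0.74), but its counts reached the filter's minimum of 10 only in the VPA libraries. A pattern in the roles of these few genes, named from this contrast, was not tested. With any 1 library left out the VPA log2 stayed within -0.84 to -0.61 for Sox2, 1.43 to 1.58 for Sox11 and 1.85 to 2.31 for Sox6. Sox2 was no longer called in 13 of 19 alternatives, among them each fit without 1 library.

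Of the 3 forkhead genes, Foxc1 and Foxq1 were lower and Foxo6 higher. Foxc1 (ENSRNOG00000017800, at 17:33947505-33951484 in the authors' deposited Cufflinks table, whose build is not given in the sources used here) acts in mesenchyme and neural crest derivatives. It stood at 40.6, 28.4 and 34.6 CPM in Control (34.5 ± 6.06), 30.2, 27.1 and 25.7 in Lithium (27.6 ± 2.3) and 21.3, 17.1 and 19.0 in VPA (19.2 ± 2.08). The VPA libraries were the lowest 3 of the 9, at a log2 of -0.85 ± 0.18. Foxq1 (ENSRNOG00000021752, 17:34224817-34226453 in the same table), a forkhead factor studied in epithelia, is listed on the same chromosome as Foxc1. Its levels were 6.99, 7.71 and 12.4 CPM in Control (9.02 ± 2.91), 5.08, 4.21 and 7.7 in Lithium (5.67 ± 1.82) and 2.65, 4.71 and 2.57 in VPA (3.31 ± 1.21). The VPA log2 was -1.46 ± 0.34, and VPA 2 lay above Lithium 2, so the VPA libraries overlapped those of Lithium but not those of Control. Foxo6 (ENSRNOG00000032639), a brain-enriched member of the insulin-regulated FoxO group, stood at 2.72, 1.63 and 2.93 CPM in Control (2.43 ± 0.7) and 1.46, 1.75 and 2.31 in Lithium (1.84 ± 0.43). It was 4.91, 5.68 and 6.59 in VPA (5.73 ± 0.837), above all others, at a log2 of 1.22 ± 0.30. Without 1 library the log2 ran from -0.98 to -0.72 for Foxc1, from -1.79 to -1.16 for Foxq1 and from 1.01 to 1.39 for Foxo6.

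Both homeodomain genes were lower in VPA. Hoxb5 (ENSRNOG00000008010), a hindbrain and enteric neural crest patterning gene, stood at 5.72, 3.36 and 4.18 CPM in Control (4.42 ± 1.19), 4.57, 5.79 and 4.47 in Lithium (4.94 ± 0.736) and 1.87, 1.93 and 1.77 in VPA (1.86 ± 0.0817). The VPA libraries differed little among themselves and lay below all others, at a log2 of -1.25 ± 0.28. Six5 (ENSRNOG00000060146), which lies beside the myotonic dystrophy kinase gene in mammals, stood at 23.5, 32.2 and 30.1 CPM in Control (28.6 ± 4.56) and 26.8, 21.9 and 23.8 in Lithium (24.2 ± 2.45). In VPA it was 9.44, 13.1 and 15.3 (12.6 ± 2.98), a log2 of -1.18 ± 0.22, again below all other libraries. In RefSeq the span of Hoxb5 overlaps that of Hoxb5os, and the span of Six5 that of Meiosin. Unstranded reads cannot be told apart where exons of different genes overlap, and exons were not compared here. The same limit holds for Sox2, Zfp523, Zfp608 and Zfp710, which each overlap a long non-coding RNA gene. Zfp819 overlaps such a gene and Ceacam18, and Sox6 overlaps a tRNA gene. Six5 and Sox11 were called in VPA against Control under all 19 alternatives, and every other called member lost its call in at least 2 of them.

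Among the 12 genes named for zinc fingers, 10 were lower in VPA and 2 higher. Zfp36l1 (ENSRNOG00000058646, 6:103307782-103313099 in the authors' deposited Cufflinks table) is the mRNA decay factor. It stood at 105, 81.6 and 104 CPM in Control (96.7 ± 13), 83.8, 120 and 104 in Lithium (103 ± 18.3) and 56.7, 56.6 and 35.5 in VPA (49.6 ± 12.2). The VPA libraries were the lowest 3, at a log2 of -0.96 ± 0.22. Its relative Zfp36l2 (ENSRNOG00000005067) was low and variable in the count table, at 1.94 ± 0.384 CPM in Control, 1.4 ± 0.895 in Lithium and 1.26 ± 0.815 in VPA, with overlapping groups and a log2 of -0.63 ± 0.54, which became -1.27 without VPA 1 and -0.23 without VPA 3.

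Znf750 (ENSRNOG00000046482), a regulator of epidermal differentiation, had the largest VPA difference among the members that were lower. Its counts were 22, 16 and 32 in Control, 29, 57 and 48 in Lithium and 8, 8 and 4 in VPA, or 2.19 ± 0.579, 3.73 ± 1.25 and 0.601 ± 0.269 CPM. The VPA log2 was -1.89 ± 0.44, and it ran from -2.19 to -1.58 without 1 library. Each VPA library lay below each of the others, and the highest 2 of all were Lithium 2 and Lithium 3. Its RefSeq span overlaps that of Tbcd, and whether their exons overlap was not examined.

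Zfp513 (ENSRNOG00000005298), whose human counterpart has been linked to retinal disease, stood at 54.9, 84.3 and 63.7 CPM in Control (67.7 ± 15.1), 77.7, 48.8 and 62.3 in Lithium (62.9 ± 14.5) and 34.9, 41.5 and 34.4 in VPA (36.9 ± 3.95). Its VPA log2 was -0.87 ± 0.21, with no overlap. Zfp608 (ENSRNOG00000023197, 18:49829649-49939707 in the authors' deposited Cufflinks table) stood at 33.0, 20 and 24.8 CPM in Control (25.9 ± 6.6), 21.2, 25.5 and 23.1 in Lithium (23.3 ± 2.17) and 17.3, 17.4 and 9.08 in VPA (14.6 ± 4.77). The groups did not overlap there either, with VPA 3 well below its companions, at a log2 of -0.83 ± 0.27. Zfp347 (ENSRNOG00000031216) stood at 38.3, 41.5 and 18.8 CPM in Control (32.8 ± 12.3), 22.8, 23.5 and 14.5 in Lithium (20.3 ± 5.03) and 16.9, 19.4 and 10.6 in VPA (15.6 ± 4.52). Replicate 3 was the lowest library of each group, so the groups overlapped although each VPA library lay below the Control library of its number. The log2 was -1.07 ± 0.32 in the unblocked fit, and -1.04 in the fit with the replicate number as a block, which called Zfp347, Zfp608 (-0.86) and Zfp710 (-0.76) lower as well.

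Another 4 zinc-finger members had VPA libraries below all 6 others. Zfp219 (ENSRNOG00000011544) was at 64.3 ± 12.4 CPM in Control, 64.3 ± 5.61 in Lithium and 38.9 ± 4.69 in VPA, a VPA log2 of -0.72 ± 0.18. Zfp523 (ENSRNOG00000000501), the rat counterpart of human ZNF76, was at 39.7 ± 6.72, 36.1 ± 4.97 and 22.4 ± 1.27 CPM, a log2 of -0.83 ± 0.19. Zfp219 is known as a partner of Sox9 in cartilage. Zfp276 (ENSRNOG00000016631) was at 28.6 ± 4.49, 25.2 ± 2.17 and 17.7 ± 1.71 CPM, a log2 of -0.70 ± 0.18. Zfp710 (ENSRNOG00000014278) was at 17.2 ± 4.09, 17 ± 3.96 and 10.1 ± 0.92 CPM, a log2 of -0.77 ± 0.24. Both genes were lower in VPA than in either other group. Zfp219 overlaps Arhgef40 and Tmem253 in RefSeq, and Zfp276 overlaps Fanca.

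Zfp872 (ENSRNOG00000050600, 8:23192989-23199329 in the authors' deposited Cufflinks table) was the 1 zinc-finger member called higher. It stood at 4.99, 4.02 and 4.44 CPM in Control (4.48 ± 0.488), 4.74, 5.7 and 6.01 in Lithium (5.48 ± 0.663) and 13.4, 13.7 and 6.1 in VPA (11.1 ± 4.31). VPA 1 and VPA 2 stood well apart, whereas VPA 3 lay only just above Lithium 3, and the log2 was 1.30 ± 0.30. Zfp819 (ENSRNOG00000030160) was at 1.83 ± 0.816 CPM in Control, 1.34 ± 0.199 in Lithium and 2.1 ± 0.62 in VPA, with overlapping groups and a log2 of 0.20 ± 0.39. Within the VPA group, VPA 3 was the lowest library in 11 of the 20 members and VPA 2 the highest in 11.

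With 8 libraries fewer members were called. Without Control 1, 2 or 3, edgeR called 7 members lower in VPA than Control in each case. It called 3 without VPA 1, 4 without VPA 2 and 3 without VPA 3. The number called higher was 2 without Control 1, 1 without Control 2, 2 without Control 3, 1 without VPA 1 and 2 without VPA 2 or VPA 3. Over all genes the calls fell too, from 1106 to between 638 and 946 without 1 VPA or Control library, while the members' log2 values stayed near those of the full fit (Zfp523 -0.96 to -0.75, Six5 -1.35 to -1.01). The fit blocked on replicate number called 14 lower and 4 higher, and of all 12719 genes tested it called 666 lower and 1075 higher.

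Lithium gave no call. The question of this comparison is whether genes named mostly for VPA also differ with the other drug; it shares the Control libraries with the contrast that chose them. edgeR called 0 of the 20 members at an adjusted p under 0.05, where it called 0.0% of all genes, and 0 at an unadjusted p under 0.05, where 0.912% of all genes passed. DESeq2 called 0 members and 0.0% of its genes, and 1 member, Zfp347, had an unadjusted p of 0.0308 in it. The Lithium and Control libraries overlapped in all 20 members, while 3.28% of all genes had no overlap. The median log2 of the members was -0.15, beside 0.002 over all genes tested, and 13 members lay below 0. The values farthest from 0 were 0.79 ± 0.53 for Sox6, 0.76 ± 0.37 for Znf750, -0.69 ± 0.32 for Zfp347 and -0.67 ± 0.33 for Foxq1. Zfp219, Zfp710 and Zfp36l1 were nearest to 0, at 0.00 ± 0.18, -0.02 ± 0.23 and 0.09 ± 0.21. Znf750 and Zfp347 also carry names in the authors' deposited lithium table, which gives them log2 values of 0.538 ± 0.249 (SE) and -0.487 ± 0.239 and adjusted p-values of 1.0, so their lithium values are a description as well. With 3 libraries a group these results do not show that lithium left the members alone.

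**Figure D3:**
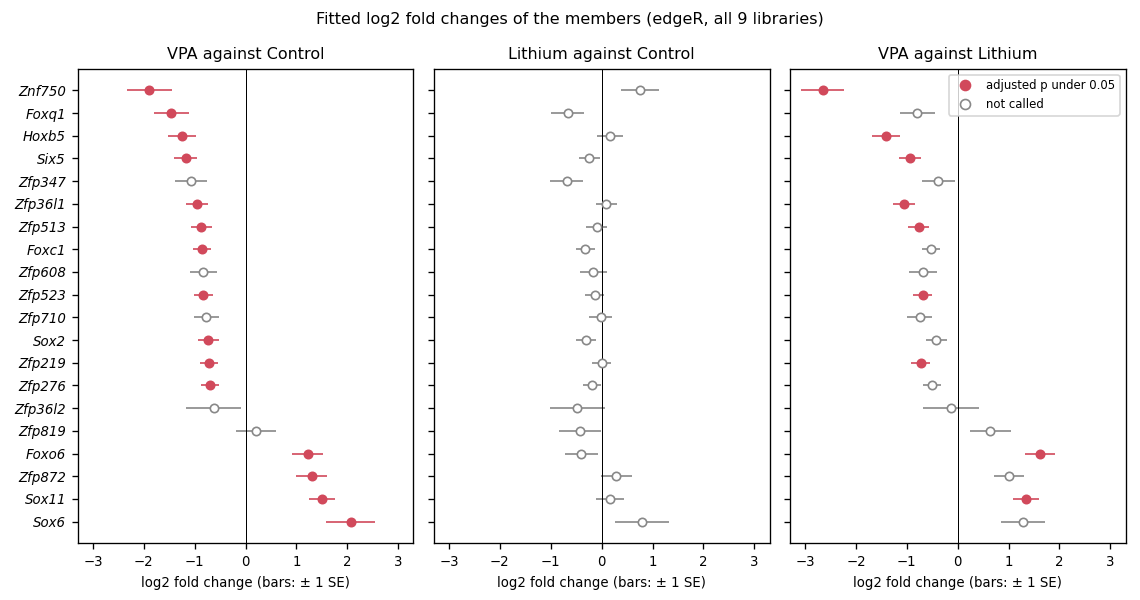
Fitted log2 fold changes of the members (points) with 1 SE on each side (bars) in 3 comparisons, from edgeR over all 9 libraries; filled points have an adjusted p under 0.05. The 20 lithium points are all open, while VPA against Lithium has 9 filled points, 7 below 0 and 2 above.

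VPA against Lithium compares both drugs at the same concentration and time, and it shares the VPA libraries with the contrast that chose the members, so its p-values partly restate that choice and are no independent support. With edgeR, 7 members were lower in VPA, where 2.32% of all genes tested were called lower, and 2 higher, where 5.61% were; 11 were not called. The median log2 was -0.6, beside -0.021 over all genes. Znf750 had the largest difference, a log2 of -2.65 ± 0.42 with an edgeR adjusted p of 0.0033 (1.58e-05 to 0.0175 over 18 alternatives), and the lithium level of this gene was its highest. Hoxb5 fell by 1.41 ± 0.28 on the log2 scale (edgeR adjusted p 0.0103, 0.00148 to 0.0489 over the alternatives). Foxo6 rose by 1.62 ± 0.30 (adjusted p 0.00767 with edgeR, 0.000295 to 0.037) and Sox11 by 1.34 ± 0.25 (adjusted p 0.00824 with edgeR, 0.000564 to 0.0372). These 4 genes, an epidermal regulator, a patterning gene, a FoxO factor and a neuronal SoxC factor, had an adjusted p under 0.05 in every alternative run, with the same caution on how they were chosen.

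The other 5 calls against Lithium were lost in some alternatives, most of them fits with 8 libraries, in which calls over all genes fell from 1009 to between 544 and 728 without 1 VPA or Lithium library. Their log2 values changed less, and without 1 library they ran from -1.17 to -0.86 for Zfp36l1, -1.11 to -0.76 for Six5, -0.81 to -0.65 for Zfp219, -0.80 to -0.62 for Zfp523 and -0.93 to -0.58 for Zfp513. Zfp36l1 fell by 1.05 ± 0.22 on the log2 scale (edgeR adjusted p 0.0118, 0.000288 to 0.0513), and the highest of these came without Lithium 2. Six5 fell by 0.94 ± 0.22 (edgeR adjusted p 0.0203, 0.00233 to 0.0839), and it was no longer called without Lithium 1 (0.0806), Lithium 3 (0.0509), VPA 1 (0.0839) or VPA 2 (0.0648). Zfp219 fell by 0.73 ± 0.18 (edgeR adjusted p 0.0319, 0.00832 to 0.111), and the call was lost without any 1 Lithium or VPA library, at 0.111, 0.0591 and 0.097 without Lithium 1, 2 and 3 and at 0.101, 0.0625 and 0.108 without VPA 1, 2 and 3. Zfp523 fell by 0.69 ± 0.19 (edgeR adjusted p 0.0419, 0.0149 to 0.151), lost at 0.151, 0.0513 and 0.128 without Lithium 1, 2 and 3 and at 0.138, 0.137 and 0.0816 without VPA 1, 2 and 3. Zfp513 fell by 0.77 ± 0.21 (edgeR adjusted p 0.0487, 0.0165 to 0.198), lost without Control 3 (0.052), Lithium 1 (0.198), Lithium 3 (0.1), VPA 1 (0.147), VPA 2 (0.0902) or VPA 3 (0.142), and with median-ratio (0.0513) or upper-quartile scaling (0.0541). As a count, 3 members were lower without Lithium 1, Lithium 3, VPA 1 or VPA 2, and 4 without Lithium 2 or VPA 3.

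Some members not called against Lithium were called in an alternative. Zfp872 differed from Lithium by a log2 of 1.01 ± 0.30 (edgeR adjusted p 0.0621, 0.0109 to 0.204 over the alternatives), and it was called with DESeq2 (0.0269), with no filter (0.0337) and without VPA 3 (0.0109). Zfp710 differed by -0.75 ± 0.24 (edgeR adjusted p 0.0808) and was called with DESeq2 (0.0479) and with the replicate block (0.0333). Foxc1 differed by -0.53 ± 0.18 (edgeR adjusted p 0.114) and was called with the block (0.0469), although the numbers did not pair these groups. Sox6, at 1.28 ± 0.43 (edgeR adjusted p 0.101), and Zfp276, at -0.51 ± 0.18 (0.116), were called in none. Sox2, at -0.42 ± 0.21 with an edgeR adjusted p of 0.269, and Foxq1, at -0.79 ± 0.35 with 0.209, were not called against Lithium, although both were lower than Control by the VPA contrast. Their Lithium levels lay between those of the other groups.

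The authors' deposited tables quantify the same libraries in other ways, which adds no replicate. Of the 20 members, 17 have a name in the authors' deposited DESeq2 table (14 lower, 3 higher), where the highest adjusted p among them is 0.046 for Sox2. Over all its genes, the authors' deposited DESeq2 table gives 446 lower and 766 higher with VPA. The authors' deposited Salmon and sleuth table lists 18 member transcripts, 13 lower and 5 higher, with a highest q of 0.0479 for Zfp710. The split over all transcripts listed there was not computed, so these 2 counts have no share beside them. Every member has the same sign in each source that lists it, and the sizes differ most for members with few counts. Znf750 has a log2 of -1.2 in the authors' deposited DESeq2 table and -1.91 for its transcript in the authors' deposited Salmon and sleuth table, beside -1.89 ± 0.44 from the counts here. For Zfp819 the authors' deposited Salmon transcript has a log2 of 3.67 while the gene count gave 0.20 ± 0.39, and for Sox6 the transcript has 3.99 while the count gave 2.07 ± 0.48. For Zfp36l2 the transcript value in the authors' deposited table is -0.77, beside -0.63 ± 0.54 from counts. Its mean transcript abundance there is 7.86 on the natural log scale, above the 6.93 of Zfp36l1, whereas the count table holds 62 Control counts for Zfp36l2 and 3072 for Zfp36l1. A transcript's difference is not that of its gene, and the counting of Zfp36l2 in 1 of these sources is uncertain.

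**Figure D4:**
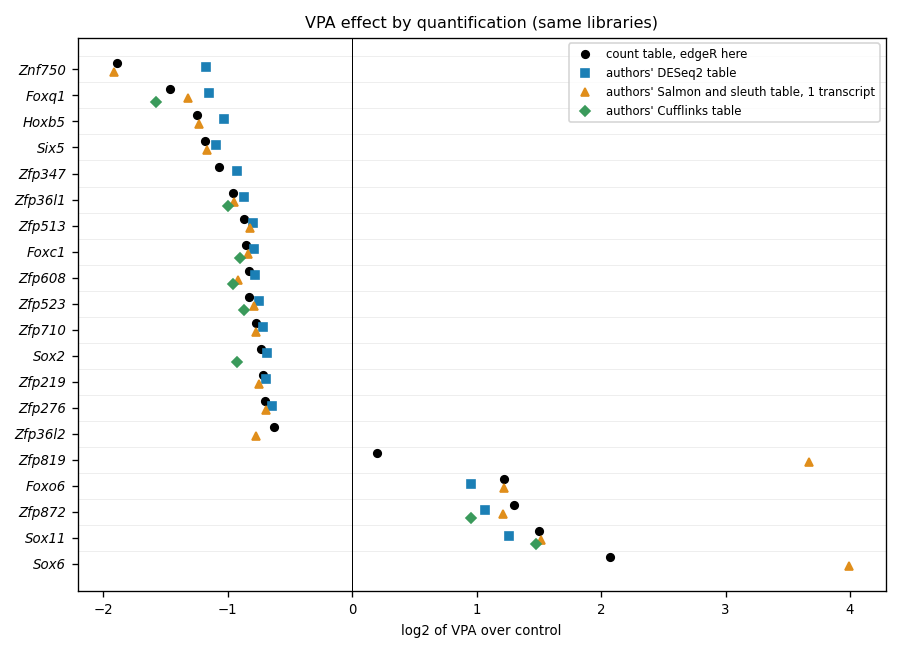
Log2 of VPA over Control for each member from the count table (edgeR here) and from the authors' DESeq2, Salmon and sleuth (1 transcript, turned from natural log) and Cufflinks tables. The widest gaps within a gene are those of Zfp819 (0.20 against 3.67), Sox6 (2.07 against 3.99) and Znf750 (-1.89 against -1.2).

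Per length, the authors' deposited Cufflinks table lists 8 members, with 1 FPKM value a group and no spread. In that table Zfp36l1 has the highest FPKM of the 8, 35.6 in Control and 17.8 in VPA. Zfp523 follows in the authors' deposited table with 16.5 and 9.06, Foxc1 with 8.23 and 4.41, Sox2 with 6.49 and 3.42, and Foxq1 with 4.29 and 1.44. The authors' deposited values are 4.02 and 2.08 for Zfp608, 1.88 and 3.65 for Zfp872, and 1.16 and 3.24 for Sox11. So the 6 members that the table gives as lower held higher Control levels than the 2 that it gives as higher. Sox11 was below Sox2 in both groups of that table, by less in VPA.

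Other factor classes with names in the tables went in both directions. Of 342 genes in 6 lists, 27 carry a name and were tested, and for VPA against Control 12 were called higher, 12 lower and 3 not called, beside 5.71% and 2.99% of all genes. Their median log2 was -0.77, beside -0.8 for the members, but with the calls split evenly this median describes neither side. The log2 values ran from -1.72 for Nr2f1 to 3.74 for Mlxipl. Mlxipl was near the floor outside VPA, at 0.0605 ± 0.105 CPM in Control and 0.112 ± 0.133 in Lithium, and reached 0.981 ± 0.029 in VPA. These names too came from this contrast, and the sets were not compared by a test. No member of the lists was called for lithium, and 9 were higher and 7 lower in VPA than in Lithium. All 3 named co-repressor genes had a log2 below 0, with Chd3, a chromatin remodeller of the deacetylase complex NuRD, at 108 ± 24.8 CPM in Control and 39.4 ± 6.46 in VPA (log2 -1.45 ± 0.21). Both named nuclear receptors were called lower, with Nr2f1, a regulator of neural patterning, going from 123 ± 18.4 to 37.3 ± 4.98 CPM (-1.72 ± 0.18) and the thyroid hormone receptor Thra at -0.82 ± 0.19. The 6 named homeobox genes outside the members' families were split, 3 called higher and 3 lower, among them Hopx at 1.54 ± 0.26 and Hmx3 at 1.63 ± 0.31, and Meis1 at -0.88 ± 0.20 and Hmx2 at -0.83 ± 0.19. Among 7 signal-dependent factors 4 were called higher, including the hedgehog effector Gli1 at 2.96 ± 0.46 and the Wnt effector Lef1 at 1.83 ± 0.35, and 3 lower, including Irf7 at -1.04 ± 0.19 and Irf1 at -0.87 ± 0.16. Of 8 basic helix-loop-helix factors 4 were called higher, among them Mitf at 1.00 ± 0.25, and 2 lower, among them Tcf3 at -0.76 ± 0.16. The only named leucine zipper factor, Nfe2l3, was at 2.42 ± 0.54. Of 19 serotonergic specification factors only Hmx2 and Hmx3 carry a name, and the homeobox values above are theirs.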

How the data were processed

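RNA-seq counts of 3 Control, 3 Lithium and 3 VPA libraries, grouped and numbered by their titles, were used. The authors deposited raw counts per Ensembl gene; libraries were unstranded and polyA-enriched, per the labels. The submitters' processing notes list STAR 2.5.1, Salmon 0.6.1, kallisto 0.42.4, Cufflinks 2.2.1, CASAVA 1.8, sleuth and DESeq2 but give no roles. Which build and annotation were used is not given in the sources used here. The authors' DESeq2 tables give log2 fold changes, SEs, a mean normalized count (a signal), test scores and p-values, per the file headers. The authors' sleuth table gives effects and mean abundances on a natural log scale with p-values and q-values, and these were divided by the natural log of 2 for comparison. The authors' Cufflinks table gives FPKM per group, log2 ratios and q-values. Another 6 columns of per-sample values (normalized counts in the lithium table) were not used.

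Counts were fitted with edgeR 4.0.16 (limma 3.58.1, R 4.3.3): TMM scaling, genes kept by filterByExpr at a minimum count of 10, a quasi-likelihood fit (robust) with 3 group means over 9 libraries, 6 residual degrees of freedom and Benjamini-Hochberg adjustment over 12719 genes. Calls needed an adjusted p under 0.05, tests were two-sided, and SE was the log2 value over the square root of F. The biological coefficient of variation was 0.22. The script was tested on simulated data. Members and lists were chosen with earlier results of these data known. Symbols come from the authors' tables alone.

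Values in every library are given for the 12 members with a mean of 1 CPM or more and the largest VPA difference, for the highest member of each family and for any called with lithium (0). From each list up to 4 genes by p were eligible. Not every eligible gene is reported here. Same-numbered VPA and Control libraries shared their deviations from the group means (correlations of 0.6, 0.533 and 0.525 across the 10288 genes averaging at least 5 CPM), and the title numbers, which the labels do not call pairs, were used as a block. Alternatives were DESeq2 1.42.0, other scalings and filters, the block, a fit of only the groups compared, and leaving out each library. Promoter windows are RefSeq's, GRCr8; 19 members matched 1 symbol and 14 had a window. Depth was 9580591 to 13030300 counts, and counting precision is worst for Sox6.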

Additional observations from a re-analysis of the deposited data

How the results depend on the processing

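The members' counts kept their direction in all alternatives, and no call changed sign. Uncalled values that crossed 0 were those of Zfp819 for VPA against Control (-0.10 to 0.53), of Zfp36l2 for VPA against Lithium (-0.79 to 0.44) and, for Lithium against Control, of Hoxb5, Zfp219, Zfp36l1, Zfp513, Zfp608 and Zfp710, within -0.33 and 0.38. For VPA against Control, 11 members were called lower and 4 higher; fits without 1 library gave 3 to 10 lower and 1 to 4 higher. For VPA against Lithium, 7 were lower and 2 higher, and fits without 1 library gave 3 to 7 lower and 2 to 3 higher. Lithium against Control stayed at 0 with each alternative run. Those fits hold 8 of the 9 libraries. DESeq2 called 14 lower and 4 higher for VPA against Control, and 8 and 3 against Lithium. Of all 14839 genes with an adjusted p in DESeq2, it called 616 lower and 913 higher for VPA against Control. Against Lithium it called 452 of them lower and 918 higher.

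With the replicate block, 14 members were lower and 4 higher for VPA against Control, and 9 and 2 against Lithium, where the numbers did not pair (correlations -0.181, 0.053 and 0.538). A block on VPA and Control alone, an alternative chosen after seeing the data, gave 14 lower and 4 higher. Of all 12504 genes tested in that fit, 996 were called lower and 1412 higher. Over all genes the block raised the calls for VPA against Control from 1106 to 1741, and for VPA against Lithium from 1009 to 1609. Same-numbered Lithium and Control libraries did not pair (-0.418, -0.0815 and 0.801), and Lithium 1 and 2 correlated with the Control library of the other number (0.681 and 0.647). Depth limits Sox6 most, at 2 to 20 counts a library.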

Other observations

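The authors' deposited Cufflinks table names 15 genes of these families, of which 7 have no name in the tables that chose the members. The authors' deposited values are higher with VPA for 5 of the 7 and lower for 2, with 1 FPKM value a group and no spread. The 2 that are lower are Krüppel-like factors: Klf4, a reprogramming and epithelial factor, goes from 54.1 to 31.6 FPKM (q 0.00999) in the authors' deposited table, and Klf10, a factor induced by TGF-beta, from 40.2 to 24.8 (q 0.0125). Those that are higher in the authors' deposited table have low FPKM. Tbx21, the T-box factor of T helper cells, goes from 1.37 to 3.13 (q 0.00808), and Lhx6, a LIM homeobox factor of cortical interneurons, from 0.445 to 1.86 (q 0.0224). Zfp536 goes from 0.863 to 1.95 (q 0.00157), Zfp772 from 0.598 to 1.57 (q 0.03) and Zfp2 from 1.05 to 1.97 (q 0.0495), as the authors' deposited table gives them. These genes could not be looked up in the count table, since the Cufflinks identifiers are not paired with Ensembl ones.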
